A study of Rattus norvegicus with 6 samples.

Results

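The circadian clock genes of rat bone marrow mesenchymal stem cells were examined by RNA sequencing in cells labelled aged and cells labelled young. Members were the 10 genes Bmal1, Clock, Per1, Per2, Per3, Cry1, Cry2, Nr1d1, Nr1d2 and Dbp, chosen by name from the 21026 gene symbols of the deposited count table. All 10 were present and passed the filter on low counts, as did 14273 genes in all. Bone marrow mesenchymal stem cells are plastic-adherent marrow stromal cells with the capacity to become bone, cartilage or fat cells. The samples were 3 libraries labelled aged and 3 labelled young, numbered 1 to 3 within each group as biological replicates. Both groups were polyadenylated RNA of the same cell type from Rattus norvegicus, with no treatment other than age in the labels. The labels give no strain, sex, age in months, passage, culture condition or hour of collection. Since no label ties a library to a separate animal, p-values measure only how these libraries vary, part of which may be technical. With 1 collection per library, the data hold levels only and no phase or amplitude of a daily rhythm.

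The mammalian clock is a feedback loop of transcription. BMAL1 and CLOCK pair and activate genes through E-box elements, among them the Per, Cry and Nr1d genes and Dbp. PER and CRY proteins then repress BMAL1 and CLOCK, while the REV-ERB receptors encoded by Nr1d1 and Nr1d2 repress Bmal1 through ROR response elements (RORE), which the ROR receptors activate. DBP, an output factor, activates genes through D-box elements, at which the repressor NFIL3 competes. In synchronised tissues Bmal1 mRNA peaks in antiphase to Nr1d1, Per and Dbp mRNA. Stromal and bone cells hold such a clock, as most cells of the body do.

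RefSeq promoter windows of assembly GRCr8, from 250 bases before to 50 after a start site, were matched by symbol for 9 of the 10 genes, with 11 windows in all. They were searched on both strands for the E-box CACGTG, the E'-box CACGTT, the D-box TTATGTAA or TTACGTAA, the half-site AGGTCA, the cAMP response element TGACGTCA and the longer RORE, which can overlap the half-site. At least 1 match lay in windows of 5 genes, Bmal1, Per2, Cry2, Nr1d1 and Nr1d2. The 4 windows below are those with a match on the gene's own strand, written 5′ to 3′ on the gene's strand with the matches in capitals. The Bmal1 window is chr1:176766078-176766377 on the plus strand, Per2 chr9:99496944-99497243 on the minus strand, the second Nr1d1 start chr10:84229405-84229704 on the minus strand, and Nr1d2 chr15:9954784-9955083 on the plus strand.
Bmal1: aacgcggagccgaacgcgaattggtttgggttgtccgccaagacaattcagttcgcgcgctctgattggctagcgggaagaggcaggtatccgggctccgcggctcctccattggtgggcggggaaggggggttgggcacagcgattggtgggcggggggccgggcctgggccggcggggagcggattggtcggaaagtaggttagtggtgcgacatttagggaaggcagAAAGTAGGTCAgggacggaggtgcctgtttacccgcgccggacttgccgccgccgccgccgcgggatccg
Per2: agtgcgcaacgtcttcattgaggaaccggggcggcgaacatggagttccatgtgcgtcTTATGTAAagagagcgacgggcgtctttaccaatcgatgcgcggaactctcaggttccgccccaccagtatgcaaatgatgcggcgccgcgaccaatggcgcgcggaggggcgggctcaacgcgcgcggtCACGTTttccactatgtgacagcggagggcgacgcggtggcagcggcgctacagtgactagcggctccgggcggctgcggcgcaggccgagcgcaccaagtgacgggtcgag
Nr1d1: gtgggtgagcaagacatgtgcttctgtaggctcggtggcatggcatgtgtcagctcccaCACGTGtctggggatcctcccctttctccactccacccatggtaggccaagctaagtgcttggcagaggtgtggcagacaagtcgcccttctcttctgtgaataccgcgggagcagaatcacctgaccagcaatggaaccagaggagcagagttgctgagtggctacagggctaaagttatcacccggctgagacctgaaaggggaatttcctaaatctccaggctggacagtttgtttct
Nr1d2: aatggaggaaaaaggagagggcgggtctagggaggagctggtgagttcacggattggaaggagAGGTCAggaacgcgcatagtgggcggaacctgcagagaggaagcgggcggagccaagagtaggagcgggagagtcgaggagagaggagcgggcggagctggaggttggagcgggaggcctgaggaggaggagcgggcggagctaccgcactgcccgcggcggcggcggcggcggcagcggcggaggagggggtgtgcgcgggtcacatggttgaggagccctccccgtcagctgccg

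The RORE searched for was A or T, A, A or T, any base, T, A or G, then GGTCA. The Bmal1 window held the match AAAGTAGGTCA from position -20 to -10, counted from the start site. A similar stretch further upstream, aaagtaggtta, ends in GGTTA and so was not counted as a match in this window. Of 33469 windows of that length in the RefSeq table, 0.356% held a RORE and 16.2% held the half-site, which also stood at -187 to -182 of Nr1d2. Per2 held the D-box TTATGTAA at -192 to -185 and an E'-box at -62 to -57, elements found in 1.01% and 4.83% of all windows. The second Nr1d1 window held the E-box CACGTG at -191 to -186, found in 6.42% of all windows. On the strand opposite to the gene, an E'-box stood in the Cry2 window at -212 to -207 and in the first Nr1d1 window at -174 to -169. No window of Clock, Per1, Per3 or Dbp held any of these letters, and 1.83% of all windows held the cAMP response element. These matches describe the letters of a window and are not evidence of binding.

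Totals ranged from 34638874 to 38921547 counts in aged and from 40180480 to 42479626 in young libraries. Mitochondria-encoded genes took 4.33% ± 0.113 of counts in aged and 1.18% ± 0.157 in young libraries (SD, n = 3 each). The stromal markers Thy1, Nt5e, Eng, Cd44, Pdgfra, Pdgfrb and Cxcl12 were detected in every library. Lepr was too, at a mean of only 0.544 CPM in aged and 0.120 CPM in young libraries. Of the 8 listed stromal markers 7 were called different, 2 higher and 5 lower in aged cells (4 and 3 when libraries were scaled by size alone). Over all 14273 tested genes 86.4% were called (44.7% higher, 41.8% lower). The largest fall in this list was that of Cxcl12, 16.7-fold lower in aged cells (edgeR adjusted p = 6.5e-22). Of 8 myeloid markers 4 were testable, with sums of 43.3 to 44.2 CPM in aged and 93.0 to 96.1 CPM in young libraries, where CPM is a count per 1000000 of the scaled library total. Ptprc, which encodes the pan-leukocyte antigen CD45, had 1 count over the aged and 0 over the young libraries. Of the 4 testable markers the receptor gene Csf1r was higher, with 21.8 ± 0.552 CPM in aged and 0.321 ± 0.182 CPM in young cells. Lyz2, Cd14 and Cd68 were 57.8-fold, 3.85-fold and 3.40-fold lower in aged cells (edgeR adjusted p = 1.4e-12, 7.5e-16 and 4.6e-05). Endothelial, lymphoid and erythroid marker sums were at most 0.678 CPM in aged and 0.471 CPM in young libraries. The 6 proliferation markers summed to 25.9 to 27.3 CPM in aged and 451 to 472.9 CPM in young libraries, all 6 lower in aged cells (5 when libraries were scaled by size alone). Mki67 fell least, with 10.8 CPM in aged and 13.2 CPM in young cells. Its log2 fold change was -0.29, or 0.05 (edgeR adjusted p = 0.63) when scaled by library size alone. The part of these differences in the clock gene results was not tested. In bulk RNA, fewer cells of a type and less RNA per cell cannot be told apart.

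The 2 activator genes rose in aged cells, the output gene Dbp fell, and the repressors were divided. By edgeR's quasi-likelihood test at a Benjamini-Hochberg adjusted p under 0.05, 6 of the 10 clock genes were higher in aged cells and 3 were lower, and Nr1d1 was not called. Across all tested genes 86.4% were called, 44.7% higher and 41.8% lower, so the count of 9 called genes stood near the background. Changes of 2-fold or more were found in 5 of the 10, namely Clock, Bmal1, Nr1d2 and Cry1 among the higher and Dbp among the lower, against 50.4% of all tested genes (29.4% higher, 21.0% lower). The median log2 fold change, aged over young, was 0.46 over the clock genes and 0.05 over all tested genes. Aged and young libraries did not overlap for any of the 10 genes, as was so for 87.5% of tested genes (45.2% with aged higher, 42.4% with aged lower). Levels below are CPM scaled by TMM, a library scaling that assumes most genes do not change. With scaling by library size only, log2 fold changes were higher by 0.34 at the median. All 10 clock genes were then called, 7 higher and 3 lower, against 86.6% of tested genes (54.0% higher, 32.6% lower), and no clock gene changed direction.

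**Figure D1:**
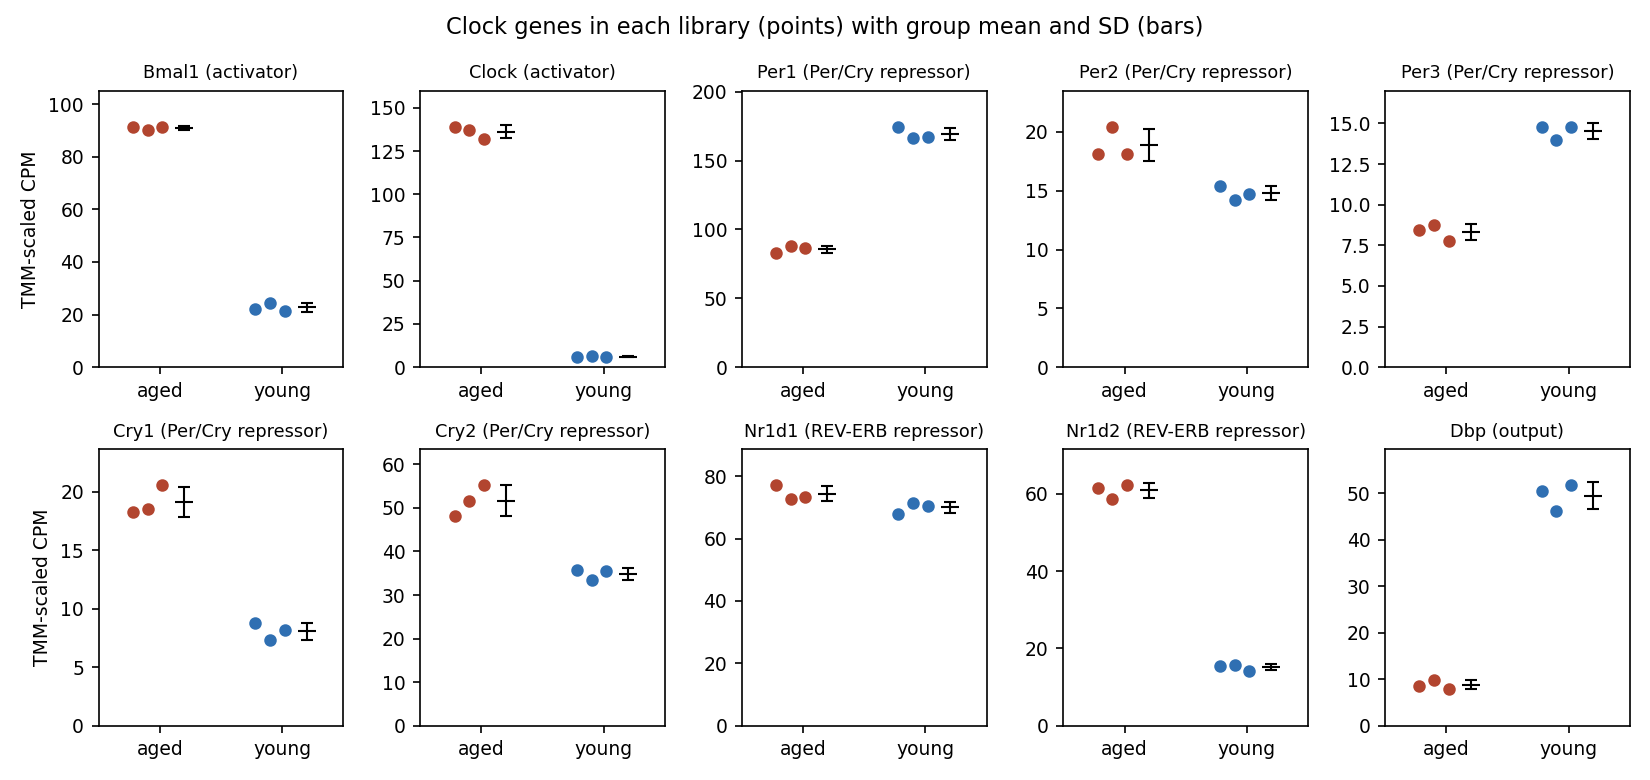
TMM-scaled CPM (vertical axes, each from 0) of the 10 clock genes in every aged (red) and young (blue) library, with the group mean and SD as black bars (n = 3 each). Clock lay at 132 to 139 CPM in aged and 5.82 to 6.57 CPM in young libraries, Dbp lay lower in aged libraries, and Nr1d1 lay within 67.9 to 77.2 CPM in all 6.

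Clock, which encodes the DNA-binding partner of BMAL1, showed the largest change of the 10 genes. It had 139, 137 and 132 CPM in the aged libraries, against 5.85, 6.57 and 5.82 CPM in the young ones. Every aged library stood far above every young one, with 208 to 249 raw counts in young libraries. The rise was 22.4-fold, a log2 fold change of 4.48 ± 0.06 (SE), with edgeR adjusted p = 1.6e-19. Of all tested genes, 96.9% had a lower fold change than Clock.

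Bmal1, the other activator, had 91.4, 90.0 and 91.5 CPM in the aged libraries and 22.1, 24.6 and 21.5 CPM in the young ones. The aged values lay within 2 CPM of each other and the groups were far apart. Its log2 fold change was 2.0 ± 0.06 (SE; edgeR adjusted p = 1.4e-15), above that of 83.4% of tested genes. Because Clock rose more than Bmal1, the log2 ratio of Clock to Bmal1 counts was 0.58 ± 0.05 in aged and -1.90 ± 0.02 in young libraries (SD, n = 3 each). Such a ratio within a library does not depend on how libraries are scaled.

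The period genes, whose proteins form the repressor complex with the cryptochromes, moved in different directions. Per1 had 83.0, 87.9 and 86.3 CPM in aged libraries, against 175, 166 and 167 CPM in young ones. It was 1.98-fold lower in aged cells, with a log2 fold change of -0.98 ± 0.04 (SE) and edgeR adjusted p = 2.5e-13. Per3, the period gene thought least needed for the rhythm itself, had 8.43, 8.74 and 7.79 CPM in aged and 14.8, 14.0 and 14.8 CPM in young libraries. Both genes were lower in every aged library than in any young one, and Per3 fell by 0.80 ± 0.09 on the log2 scale (SE; edgeR adjusted p = 3.7e-07).

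Per2, by contrast, was higher in aged cells. Its values were 18.1, 20.5 and 18.1 CPM in aged libraries and 15.4, 14.2 and 14.7 CPM in young ones. The groups lay close but did not overlap, and the log2 fold change of 0.35 ± 0.08 (SE) was the smallest among the called clock genes (edgeR adjusted p = 7.7e-04). The log2 ratio of Per2 to Per1 was -2.18 ± 0.08 in aged and -3.52 ± 0.03 in young libraries (SD, n = 3 each). The Per2 window above holds a D-box and an E'-box, and a link of these letters to its level was not tested.

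Both cryptochrome genes, which encode the direct repressors of the activator pair, rose. Cry1 had 18.3, 18.5 and 20.6 CPM in aged libraries, against 8.78, 7.33 and 8.14 CPM in young ones. The groups stood apart, and the rise was 2.37-fold, with a log2 fold change of 1.24 ± 0.10 (SE; edgeR adjusted p = 1.3e-09). Cry2 reached 48.2, 51.5 and 55.2 CPM in aged libraries, against 35.8, 33.3 and 35.5 CPM in young ones. All 3 aged libraries exceeded the young ones, by a log2 fold change of 0.57 ± 0.06 (SE; edgeR adjusted p = 1.8e-07). The log2 ratio of Cry1 to Cry2 was -1.43 ± 0.04 in aged and -2.11 ± 0.08 in young libraries (SD, n = 3 each).

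**Figure D2:**
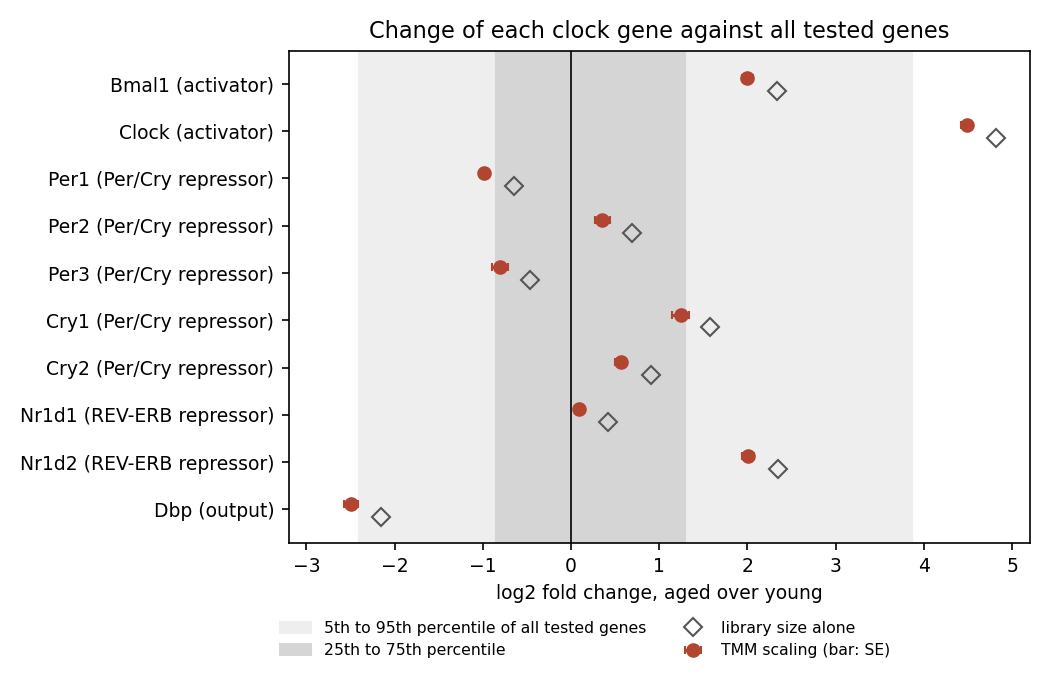
Log2 fold change, aged over young, of each clock gene with TMM scaling (red points, bars SE) and with scaling by library size alone (open diamonds), over shaded percentile ranges of the 14273 tested genes. Clock at 4.48 and Dbp at -2.49 lay outside the 5th to 95th percentile range, and no gene changed sign between scalings.

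The REV-ERB genes differed from each other. Nr1d2, encoding REV-ERB beta, had 61.6, 58.7 and 62.2 CPM in aged libraries and 15.5, 15.6 and 14.2 CPM in young ones. This rise of 4.02-fold, a log2 fold change of 2.01 ± 0.06 (SE; edgeR adjusted p = 4.7e-15), was within 1 SE of that of Bmal1. Nr1d1, encoding REV-ERB alpha, had 77.2, 72.6 and 73.5 CPM in aged and 67.9, 71.5 and 70.6 CPM in young libraries. The groups did not overlap, but the lowest aged and highest young value lay close together. Its log2 fold change of 0.09 ± 0.05 (SE) did not pass (edgeR adjusted p = 0.094), which does not show that the gene was unaltered. Scaled by library size alone the change was 0.42 (adjusted p = 3.2e-07), and without young replicate 2 it was 0.10 (adjusted p = 0.044). The log2 ratio of Nr1d2 to Nr1d1 was -0.29 ± 0.05 in aged and -2.21 ± 0.09 in young libraries (SD, n = 3 each).

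Nr1d1 overlaps Thra, the thyroid hormone receptor alpha gene, on the opposite strand in RefSeq. The strand setting of the counting is not given in the sources used here, so reads of their shared stretch cannot be told apart. Thra had 31.0, 32.1 and 33.3 CPM in aged libraries, against 113, 106 and 115 CPM in young ones. It was 3.47-fold lower in aged cells (edgeR adjusted p = 1.3e-15), and its part in the Nr1d1 values was not tested. The other genes of this table that overlap a clock gene, a long non-coding RNA in Clock and a predicted gene in Cry1, had at most 1 count in any library.

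Dbp, the D-box activator and a direct target of the BMAL1-CLOCK pair, fell most. It had 8.6, 9.81 and 7.92 CPM in aged libraries, against 50.4, 46.3 and 51.8 CPM in young ones. Every aged library lay far below every young one, and the gene was 5.63-fold lower, with a log2 fold change of -2.49 ± 0.08 (SE; edgeR adjusted p = 8.3e-15). Only 4.69% of tested genes had a lower fold change. Relative to Bmal1 the shift was wider, with a log2 ratio of Bmal1 to Dbp of 3.38 ± 0.17 in aged and -1.12 ± 0.19 in young libraries (SD, n = 3 each). The order of the 10 fold changes was therefore Clock, then Nr1d2 and Bmal1, which did not differ beyond their SE, then Cry1, Cry2, Per2, Nr1d1, Per3, Per1 and Dbp.

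Set against each other within each library, activators were on average higher relative to repressors and output in aged cells. The mean log2(CPM + 0.5) of Bmal1 and Clock minus that of the 8 Per, Cry, Nr1d and Dbp genes was 1.95, 1.87 and 1.89 in aged libraries and -1.36, -1.13 and -1.35 in young ones. All 3 aged libraries stood above the young ones, and the group means differed by 3.18 on the log2 scale. Clock, with a log2 fold change of 4.48, gave more of this difference than Bmal1 with 2.0. The repressor gene Nr1d2 rose about as much as Bmal1, by 2.01. CPM were not corrected for transcript length, so the sign of this contrast has no meaning of its own. Against the 5 Per and Cry genes alone the difference was 2.04 ± 0.06 in aged and -1.07 ± 0.15 in young libraries. Against the 2 Nr1d genes it was 0.72 ± 0.04 in aged and -1.43 ± 0.06 in young libraries, and against Dbp 3.60 ± 0.14 in aged and -2.02 ± 0.18 in young libraries (SD, n = 3 each). No p is given, since the genes were chosen with results of these data known. The sum of the 2 activators was 223 to 231 CPM in aged and 27.3 to 31.2 CPM in young libraries.

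**Figure D3:**
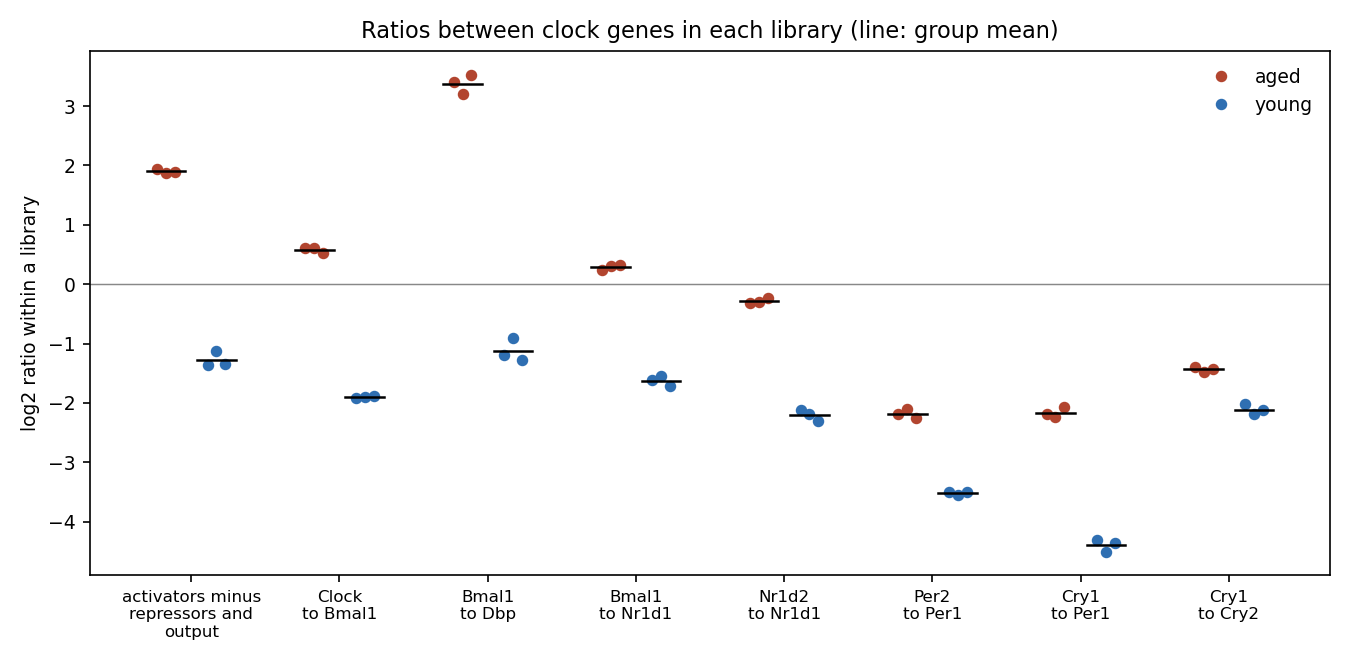
Log2 ratios between clock genes within each aged (red) and young (blue) library, with group means as lines, where the leftmost column is the activator mean minus the mean of repressors and output. Bmal1 to Nr1d1 averaged 0.29 in aged and -1.62 in young libraries. The groups were separate in every column, and for single genes they did not overlap in 87.5% of those tested.

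Related factors at the same elements were examined next. In the list of activator paralogues and ROR receptors, 2 of 4 tested genes rose and 1 fell (over all tested genes 44.7% and 41.8%), and the median log2 fold change was 1.33. Rora, which encodes the activator that competes with REV-ERB at the RORE, had 49.5, 49.7 and 50.7 CPM in aged libraries, against 5.87, 5.88 and 4.93 CPM in young ones. The groups were far apart, and Rora was 8.98-fold higher (edgeR adjusted p = 2.2e-16). The log2 ratio of Rora to Nr1d1 was -0.57 ± 0.06 in aged and -3.66 ± 0.16 in young libraries (SD, n = 3 each). Npas2, the CLOCK paralogue, chosen after its values were seen, rose 5.83-fold to 39.0 ± 1.72 CPM in aged cells, against 6.68 ± 0.368 CPM in young cells. Bmal2, the BMAL1 paralogue, was lower at 16.5 ± 0.497 CPM in aged and 21.2 ± 1.41 CPM in young cells (edgeR adjusted p = 4.0e-04), but its log2 fold change of -0.36 became -0.02 (adjusted p = 0.78) when libraries were scaled by size alone. Rorb was not called at 0.648 ± 0.328 CPM in aged and 0.601 ± 0.0281 CPM in young cells.

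The next list held D-box and E-box factors (the PAR bZIP and DEC genes) with other regulators such as Cipc and Timeless. Of its 7 tested genes 4 fell, Timeless among them, and 1 rose, against 41.8% and 44.7% of all tested genes. The median log2 fold change was -0.16. The number higher was 2 without aged replicate 1, aged replicate 3 or young replicate 2. Scaled by library size alone, 2 were lower and 4 higher (all tested genes 32.6% and 54.0%) and the median was 0.17. Nfil3, the D-box repressor, had 49.5, 47.9 and 50.1 CPM in aged and 155, 150 and 152 CPM in young libraries, with no overlap. It was 3.10-fold lower (edgeR adjusted p = 3.7e-16), so both the activator Dbp and the repressor Nfil3 of the D-box were lower in aged cells. Cipc, encoding an inhibitor of CLOCK, was 3.48-fold higher, with 65.2 ± 2.68 CPM in aged and 18.7 ± 2.50 CPM in young cells (edgeR adjusted p = 4.2e-13). Tef, a relative of Dbp seen after its values were known, had 43.4 ± 1.11 CPM in aged and 48.6 ± 0.827 CPM in young cells. Its log2 fold change was -0.16 (edgeR adjusted p = 0.0086) but 0.17 when scaled by library size alone. Hlf, the remaining PAR bZIP gene, was too low to test, with at most 0.194 CPM in aged and 0.168 CPM in young libraries.

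Kinases and phosphatases that act on PER and CRY proteins had 6 of 13 genes higher and 6 lower, near the shares of all tested genes (44.7% and 41.8%), and a median log2 fold change of 0.10. Prkaa2 encodes a catalytic subunit of the energy sensor AMPK. It had 5.62, 6.01 and 6.15 CPM in aged libraries, against 0.0554, 0.185 and 0 CPM in young ones (2, 7 and 0 raw counts). The groups were far apart, and its log2 fold change was 6.12 ± 0.37 (SE; edgeR adjusted p = 4.3e-11), or 7.57 without young replicate 2, which held 7 of the 9 young counts. The protein phosphatase 1 subunit gene Ppp1ca was 3.09-fold lower, with 102 ± 3.50 CPM in aged and 317 ± 11.1 CPM in young cells (edgeR adjusted p = 1.6e-16). Of the casein kinase 1 genes whose products mark PER for degradation, also named after their values were seen, Csnk1e was 1.99-fold lower (edgeR adjusted p = 1.5e-11). Csnk1d had a log2 fold change of -0.32 (edgeR adjusted p = 1.0e-07), which became 0.014 (adjusted p = 0.70) when scaled by library size alone. Csnk1a1, the remaining casein kinase 1 gene of the list, went the other way. It was 2.07-fold higher, with 351 CPM in aged and 170 CPM in young cells (edgeR adjusted p = 2.1e-11).

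In the list of ubiquitin ligases and proteases, 4 of 8 genes rose and 3 fell, beside 44.7% and 41.8% of all tested genes, and the median log2 fold change was 0.54. Scaled by library size alone the counts were 5 and 1, beside 54.0% and 32.6%. Fbxw7, a ligase subunit that targets REV-ERB alpha, was 2.62-fold higher at 20.2 ± 1.18 CPM in aged and 7.72 ± 0.540 CPM in young cells (edgeR adjusted p = 1.5e-10). Usp2, a clock-controlled protease gene, was 3.03-fold lower at 11.9 ± 0.940 CPM in aged and 36.2 ± 1.18 CPM in young cells (edgeR adjusted p = 1.3e-12).

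Chromatin partners of the clock had 6 of 11 genes higher and 4 lower, with a median log2 fold change of 1.21, and the 10 called genes stood near the 86.4% called overall (44.7% higher, 41.8% lower). Sirt1, an NAD-dependent deacetylase that acts on BMAL1 and PER2, had 41.2, 41.0 and 41.3 CPM in aged libraries, against 3.32, 3.75 and 2.02 CPM in young ones. Aged values were nearly equal and far above the young ones, a rise of 13.5-fold (edgeR adjusted p = 1.1e-14). Ezh2, a histone methyltransferase gene, was 2.29-fold lower at 7.07 ± 0.385 CPM in aged and 16.2 ± 0.872 CPM in young cells (edgeR adjusted p = 2.3e-09). The REV-ERB corepressor pair, chosen after its values were seen, was split. Ncor1 was 4.04-fold higher and its deacetylase partner Hdac3 1.63-fold lower, with edgeR adjusted p of 3.1e-16 and 1.0e-08.

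Of 6 clock-controlled targets, 5 rose and 1 fell, where 44.7% and 41.8% of all tested genes did so, and the median log2 fold change was 1.21. Klf9, encoding a Krüppel-like factor, had 76.9 ± 3.0 CPM in aged and 27.6 ± 2.89 CPM in young cells, 2.79-fold higher (edgeR adjusted p = 7.4e-13). Por, which encodes the reductase that passes electrons to cytochrome P450 enzymes, was 2.14-fold lower at 86.6 ± 3.26 CPM in aged and 185 ± 5.01 CPM in young cells (edgeR adjusted p = 6.4e-14).

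Input pathways, through which cAMP, heat and glucocorticoids act on the clock, had 5 of 12 genes higher and 3 lower (44.7% and 41.8% of all tested genes), with a median log2 fold change of 0.06. Without young replicate 1, 5 were lower. Scaled by library size alone, 10 were higher and 2 lower, against 54.0% and 32.6% of all tested genes. Nr3c1, the glucocorticoid receptor gene, had 176, 180 and 177 CPM in aged libraries, against 33.8, 42.4 and 34.7 CPM in young ones. The groups were far apart, and the rise was 4.80-fold (edgeR adjusted p = 1.2e-15). Sik1, encoding a kinase that limits the cAMP input to Per1, had 5.38, 4.47 and 4.38 CPM in aged and 30.1, 27.2 and 28.4 CPM in young libraries. It was 6.02-fold lower (edgeR adjusted p = 4.2e-14), the largest fall in this list.

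**Figure D4:**
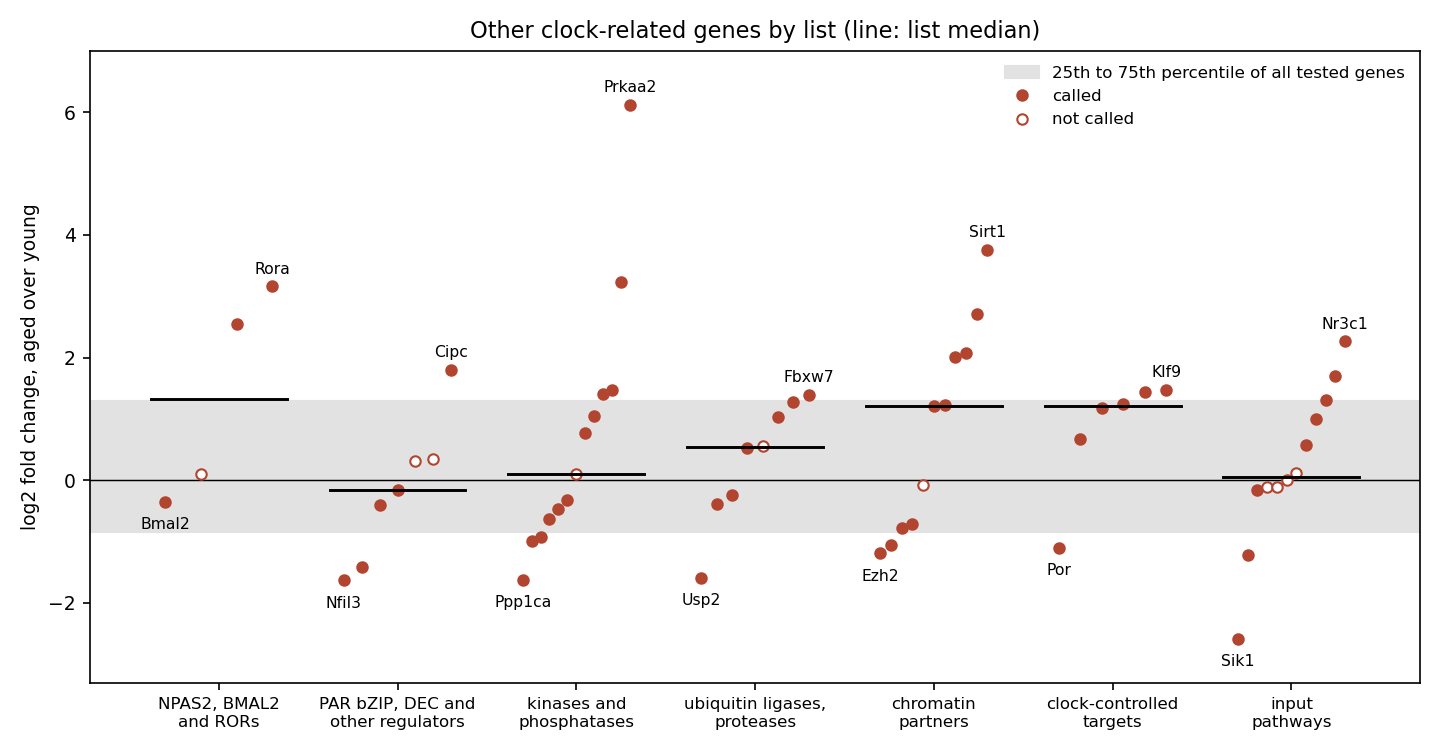
Log2 fold change, aged over young, of the 61 tested genes in 7 lists of clock-related genes, with filled points called and open points not called, lines at list medians and a grey band for the 25th to 75th percentile range of all tested genes. List medians ran from -0.16 for the PAR bZIP, DEC and other regulators to 1.33 for paralogues and RORs.

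Over these 7 lists 29 of 61 tested genes were higher and 22 lower, near the background of 44.7% and 41.8%. Scaled by library size alone they were 40 and 15, against 54.0% and 32.6% of all tested genes. Their median log2 fold change was 0.35, against 0.05 over all tested genes. The genes closest to Bmal1 over the 6 libraries, by root mean square distance of centred log2(CPM + 0.5) among 10255 genes averaging 5 CPM or more, were Idh1 at 0.0067, Pura at 0.024 and Tsr1 at 0.028. Those closest to Nr1d1 were Arf6 at 0.020, Pja1 at 0.022 and Sod3 at 0.023. With 2 groups that stand apart, this likeness mostly ranks genes by the size of the group difference.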

How the data were processed

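Polyadenylated RNA of 3 aged and 3 young libraries was sequenced after TRIzol extraction and preparation with a VAHTS Universal V6 kit, per the labels' protocols. Tools listed per the submitters' processing notes are fastp, HISAT2 and HTSeq, with no versions. The build, annotation and strand setting of the counting are not stated either. The authors deposited raw read counts per gene symbol, 1 column per library, matched to samples by the library name in the labels.

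Counts were tested in edgeR 4.0.16 (R 4.3.3) after filterByExpr (minimum count 10) and TMM scaling, with group as the only term. The quasi-likelihood F test compared aged with young, and p-values were Benjamini-Hochberg adjusted over 14273 genes. SE is the log2 fold change divided by the square root of F. DESeq2 1.42.0, limma-voom (limma 3.58.1), other scalings, no filter, a replicate block and leaving out each library were alternatives, and the test was also run on simulated data.

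Members and the 7 further lists were chosen with earlier results of these data known. All 10 members are named, as are, per further list, the called gene with the largest rise and fall at a mean of at least 1 CPM and genes too low to test. Some genes first listed are not reported here, and were left out of the counts by list and of the naming rule after values had been seen. Other genes named were chosen after their values were seen. Ratios and their SD cover these libraries only. Sequences are RefSeq GRCr8, matched by symbol.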

Additional observations from a re-analysis of the deposited data

How the results depend on the processing

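Each clock gene was refitted under 13 alternatives (library size alone, DESeq2 size factors in edgeR, no mitochondria-encoded genes, no low-count filter, DESeq2, limma-voom, a replicate block and 6 fits without 1 library each). Of 130 values, 128 kept their direction and their side of the threshold, and 0 reversed. The exceptions were both Nr1d1, called at 0.42 with library size alone and at 0.10 without young replicate 2, while its adjusted p ran from 3.2e-07 to 0.43 over all alternatives. For 22 further named genes 283 of 286 values kept both. Under library size alone Tef reversed to 0.17, Csnk1d to 0.014 and Bmal2 lost its call. Called clock genes numbered 9 or 10, with 6 or 7 higher and 3 lower. All called genes numbered 12111 to 12577 without 1 library and 12119 to 13418 otherwise. Library size alone moved the share of called genes that were higher to 62.3%, against 51.7% with TMM. The activator contrast ran from 3.14 to 3.26 without 1 library, and from 2.84 with Dbp left out to 3.24 with another pseudocount. Same-numbered libraries showed no shared deviation from their group means, with correlations of -0.013, 0.0011 and 0.0098. Whether replicate numbers pair the samples by design is not given in the labels and cannot be told from these values. With the replicate block 12162 genes were called, and 9 of the clock genes. Counts under 10 in the young libraries limit the fold of Prkaa2.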

Other observations

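Spread between libraries of a group differed among the clock genes. The coefficient of variation of CPM was lowest for Bmal1 in aged libraries at 0.884%, where counting error alone would give 1.63%. It was highest for Dbp in aged libraries at 10.9%, against 5.24% from counting error, and for Cry1 in young libraries at 8.98%, against 5.82%. Among the young libraries, replicate 2 stood apart from the other two over all genes, with a chi-square per degree of freedom of 11.2 and 9.19 against them and 3.64 between those. Aged pairs gave 3.13 to 3.61. Young replicate 2 had the highest young Bmal1 and Clock values and the lowest young Dbp and Cry1 values, and without it 10 clock genes were called.

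The paralogues of the activators kept different proportions. The log2 ratio of Npas2 to Clock was -1.81 ± 0.09 in aged and 0.14 ± 0.08 in young libraries, and that of Bmal2 to Bmal1 was -2.46 ± 0.03 in aged and -0.10 ± 0.04 in young libraries (SD, n = 3 each). The log2 ratio of Nfil3 to Dbp was 2.49 ± 0.19 in aged and 1.62 ± 0.07 in young libraries.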
